A study of Mus musculus with 3 samples.

Results

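In muscle RNA of male C57BL/6 mice, all 8 weeks of age, 309 exonic parts that the gene annotation did not hold were covered well enough to be described. An exonic part is a stretch of a gene between neighbouring exon boundaries, and these parts entered the data through the long reads alone. They were chosen from 27271 parts of 686 genes, of which 1444 were absent from annotation release 85. A part was taken when at least 20 consensus reads covered its place in the best covered library, which left 309 parts in 127 genes. Parts are named by their gene and the deposited part number, such as Cltc u-001.

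The series holds 1 library each of the cardiac apex, a fast leg muscle, the extensor digitorum longus (EDL), and a slow one, the soleus, both taken whole, all titled wild type. Per the labels' protocols, cDNA molecules of 5 to 10 kb were selected and read by PacBio Iso-Seq, which sequences each cDNA over its whole length. A full-length read is 1 sequenced molecule, and a consensus read merges full-length reads judged to be alike. How many mice gave each library is not stated, so the values have no replicate check and each test compares libraries, not tissues.

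Cells remove introns from a new transcript and join the exons, and they can keep or skip an exon according to the cell type. Striated muscles use this heavily, and different muscles make different forms of the same contractile and scaffold proteins. An exon whose length is a multiple of 3 can be kept or skipped without shifting the reading frame. Annotation catalogues are built from transcripts seen in many tissues, and exons used in few cell types, or only in very long transcripts, can be missing from them.

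The libraries held 18302, 19826 and 17459 consensus reads in genes for cardiac apex, EDL and soleus, built from 96946, 101804 and 117237 full-length reads. Heart and skeletal muscle markers were read mostly in the libraries so labelled. Ryr2, the heart calcium release channel, had 94 cardiac reads and 0 in both leg muscles, Neb, the giant thin filament protein of skeletal muscle, had 2, 451 and 249 reads, and Myh7, the slow myosin, had 38, 18 and 433. Fast myosins were read in both leg muscles, with 432 reads of Myh4 in EDL and 135 in soleus, and 119 and 100 of Myh1. Of markers of other cells, Col3a1, Pecam1 and Ptprc had 0 reads and Col1a1 had 1 read in EDL, while Col4a1 had 71, 39 and 35, the endothelial genes Kdr and Ptprb 17 to 36, the smooth muscle gene Myh11 8, 14 and 14, and the macrophage gene Mrc1 7, 7 and 6. The part of these cells in the results was not tested. In whole tissue, fewer cells of a type and less RNA per cell cannot be told apart. The cDNA molecules were also selected by size before reading, so a count of 0 does not show that a gene or its cells were absent. The effect of the size selection on these marker counts was not tested.

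A later catalogue, GENCODE release M21 on the same build (GRCm38), held exons with exactly the same edges as 10 of the 309 parts. In 6 of these the part was used in at least 20% of reads in some library. The sequences of the 5 shortest are shown, as exons that the reads both kept and skipped; they were singled out after their values were seen. The exon is in capitals and the 15 bases of its neighbour exons on each side are in lower case, all read 5′ to 3′ from the GENCODE M21 transcripts.
Kif16b u-003: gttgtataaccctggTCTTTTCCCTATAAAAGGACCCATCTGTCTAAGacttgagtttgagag
Usp47 u-004: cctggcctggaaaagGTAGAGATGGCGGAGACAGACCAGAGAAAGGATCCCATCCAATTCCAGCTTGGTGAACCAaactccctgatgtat
Tsc2 u-001: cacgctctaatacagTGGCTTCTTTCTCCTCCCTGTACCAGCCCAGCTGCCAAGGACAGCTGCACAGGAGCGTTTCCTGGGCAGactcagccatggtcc
Mlh3 u-001: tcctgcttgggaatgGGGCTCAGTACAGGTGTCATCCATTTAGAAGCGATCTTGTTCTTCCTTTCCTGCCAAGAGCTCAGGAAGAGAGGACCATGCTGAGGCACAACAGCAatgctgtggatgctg
Zcchc6 u-002: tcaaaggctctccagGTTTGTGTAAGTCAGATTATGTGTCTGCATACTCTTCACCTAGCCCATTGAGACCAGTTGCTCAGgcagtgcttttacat

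The first 4 are wholly coding in a transcript of the later catalogue, and their lengths of 33, 60, 69 and 96 nt are multiples of 3. Kif16b u-003 (chr2:142715062-142715094, minus strand), in the gene of an endosome-carrying kinesin, was held by 57 of 120 full-length reads in cardiac apex, 53 of 100 in EDL and 51 of 126 in soleus. Reads with and without this exon were thus both common in all 3 libraries, and none of its pairs passed the test. Tsc2 u-001 (chr17:24601389-24601457, minus strand), in the gene of tuberin, a brake on the growth kinase mTOR, was held by 59 of 155, 92 of 161 and 139 of 276 reads. It was lowest in cardiac apex, at 38.1%, with 57.1% in EDL and 50.4% in soleus, a gap under the 20 points that a call needed.

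Usp47 u-004 (chr7:112080172-112080231, plus strand), in a gene for an enzyme that removes ubiquitin, was held by 177 of 561, 619 of 1332 and 580 of 1612 reads. Its shares of 31.6%, 46.5% and 36.0% put EDL highest, again by under 20 points. Mlh3 u-001 (chr12:85262767-85262862, minus strand), in a DNA mismatch repair gene, was held by 9 of 63, 32 of 66 and 8 of 35 reads. EDL, at 48.5%, stood above cardiac apex, at 14.3%, and soleus, at 22.9%, lay between them. Zcchc6 u-002 (chr13:59779137-59779201, minus strand), 65 nt, lies in the gene of a terminal uridylyltransferase that the later catalogue calls Tut7, in a transcript with no coding sequence. It was held by 1 of 38, 15 of 35 and 24 of 83 reads, so it was rare in cardiac apex and common in both leg muscles.

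Most of the 309 parts were used rarely. The share is the percent of covering full-length reads that held the part, and the highest share is taken over the libraries with 10 or more such reads. It was under 5% for 190 parts and 5% to under 20% for 33. The highest share was 20% to under 50% for 22 parts, 50% to under 95% for 26 and at least 95% for 38. Among 8263 annotated parts with the same coverage floor the order was the opposite, with 941 under 5% and 6918 at 95% or more. A part absent from the annotation enters the table only through a read that holds it, so the support behind a low share is often small: 132 of the 309 parts, 42.7%, were held by a single consensus read over all 3 libraries. The same was true of 130 of the 8263 annotated parts, 1.57%. A further 60 parts were held by 2 to 4 consensus reads and 117 by 5 or more.

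**Figure D1:**
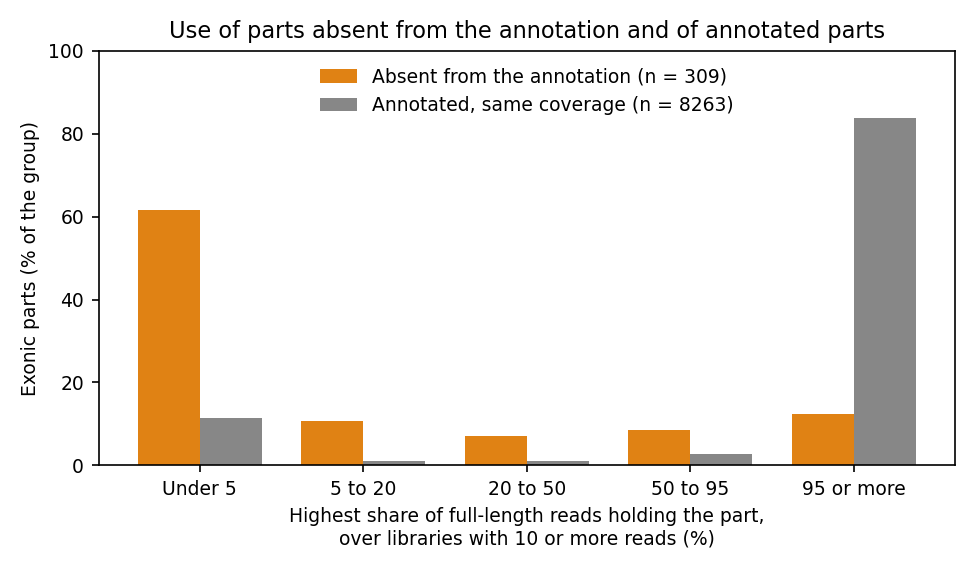
Bars give the percent of parts, on the vertical axis, by the highest share of full-length reads that held the part, over libraries with 10 or more reads, on the horizontal axis, for the 309 parts absent from the annotation and for 8263 annotated parts with the same coverage. Parts absent from the annotation gather under 5% and annotated parts at 95% or more.

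Some read in cardiac apex held 170 of the parts, some read in EDL 195 and some read in soleus 179. Reads of all 3 libraries held 90 parts, while 62 were held in cardiac apex alone, 59 in EDL alone and 43 in soleus alone. The same counts were not made over annotated parts, so these do not show parts particular to a tissue. A part held by 1 consensus read is by necessity seen in 1 library, and 132 of the 309 parts were of this kind. At least 20 consensus reads covered 181 of the parts in cardiac apex, 229 in EDL and 207 in soleus. What depth or tissue had to do with the counts was not tested. At the coverage floor, the 21 parts covered by exactly 20 consensus reads had a median highest share of 3.70%, and the 27 parts just under the floor, covered by 19, had 3.57%.

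The lengths fell into separate ranges. The median was 150 nt (quartiles 79 and 531) against 122 nt (78 and 183) for annotated parts. No part was between 3000 and 5000 nt long: the longest below was 2838 nt and the shortest above was 5018 nt. Above that gap stood 54 parts, 17.5% of the 309, in 32 genes, and 53 of them were between 5000 and 10000 nt. Of annotated parts, 75 lay in the empty range and 31, or 0.375%, reached 5000 nt. The range of these 54 parts is also the range of molecule sizes selected for the libraries, and the part this played was not tested.

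All 54 long parts lay inside the annotated span of their gene, and 47 of them met no exon of the later catalogue on their strand. Of these 54, 27 were held by a single consensus read and 35 had a highest share under 5%. Cardiac apex alone held 18 of them (33.3%), EDL alone 9 and soleus alone 7, where 44 (17.3%), 50 and 36 of the other 255 parts were held by those libraries alone; the difference was not tested. Long parts with more reads were few, with 10 held by at least 5 consensus reads. One of these, Mybpc1 u-002, 6513 nt in the gene of slow myosin-binding protein C, was held by 44 of 52 reads in EDL and 38 of 39 in soleus, with no cardiac read. Nedd4 u-001, 6724 nt in a ubiquitin ligase gene, was held by the most consensus reads of any long part, 65, at a highest share of 19.99%. These were singled out after their values were seen. Whether reads counted as holding Mybpc1 u-002 or Nedd4 u-001 contain the whole part was not examined.

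**Figure D2:**
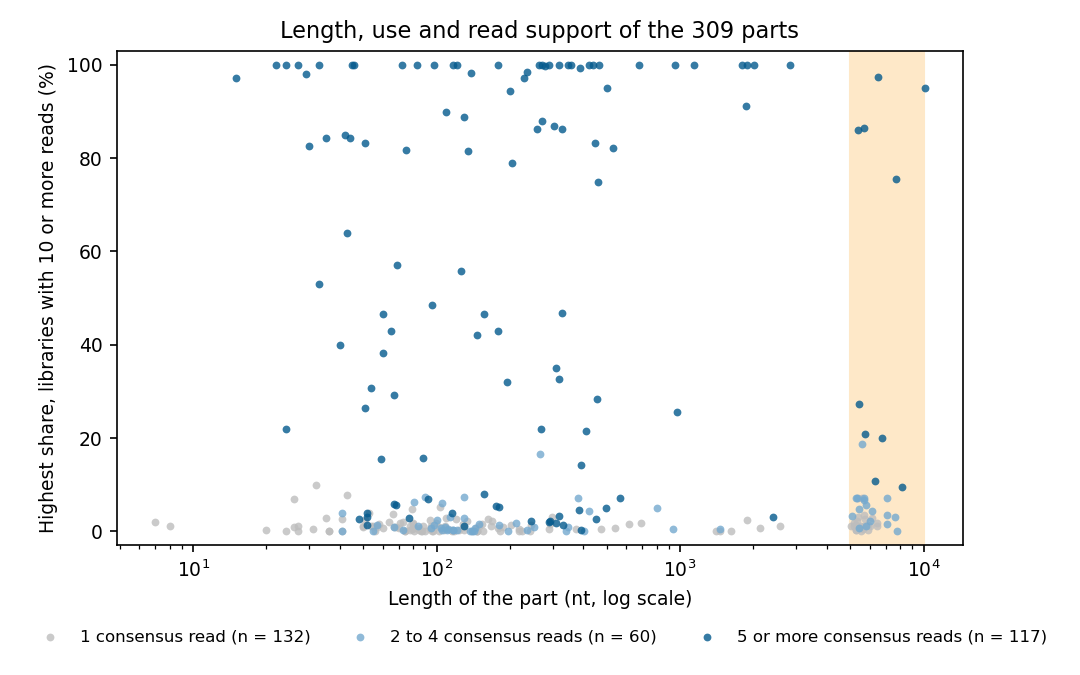
Each point is 1 of the 309 parts, placed by its length on a log axis in nt and by its highest share over libraries with 10 or more reads in percent, and coloured by how many consensus reads held it. The shaded band marks 5000 to 10000 nt; no part lies between 3000 nt and the band, and most parts held by 1 consensus read lie near the bottom.

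Lengths that keep the reading frame were counted in rare and in common parts. Of 139 parts under 400 nt that lie in an intron between coding exons, a multiple of 3 was found in 26 of the 89 with a highest share under 5%, in 4 of the 15 from 5% to under 20%, and in 18 of the 35 at 20% or more. Over all members the figure was 119 of 309, or 38.5%, against 43.1% of annotated parts. These are counts with no test.

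In position, 279 of the parts lay inside the annotated span of their gene, 21 upstream of it and 9 downstream. None touched an annotated part, 4 came within 3 nt of one, and the median distance to the nearest was 901 nt. The later catalogue held a same-strand exon over 52 of the parts when the 10 with the same edges, 21 that lay inside a longer exon and 21 that overlapped one are counted together, and none over 257. For annotated parts, 8249 of 8263 lay inside an exon of that catalogue. Of the 86 parts used in at least 20% of reads in some library, 55 met no same-strand exon there.

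Parts beyond the annotated ends of a gene were often held by every covering read. All 9 downstream parts, in 9 genes, had a share of at least 95% in each library with 10 or more full-length reads, and the later catalogue held a same-strand exon over 7 of them. Gpam u-002, a part of 2019 nt that begins 63 nt past the annotated end of the gene for the mitochondrial enzyme that starts triglyceride synthesis, was held by 1742 of 1742, 1754 of 1754 and 1736 of 1736 reads. Myh6 u-001, a part of 45 nt that lies 12 nt past the annotated end of the cardiac alpha-myosin gene, was held by 33760 of 33760 cardiac reads, 85 of 85 in EDL and 73 of 73 in soleus. A read that stops short of a part is counted as neither holding nor lacking it, so such shares do not give the portion of transcripts that reach the part.

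Klhl24 u-001, 1143 nt in a gene for a substrate adaptor of a ubiquitin ligase, was held by 161 of 161, 108 of 108 and 82 of 82 reads. Ttc37 u-003, 1890 nt in a gene for a subunit of the RNA-degrading Ski complex, was held by 55 of 55, 101 of 101 and 23 of 23. Scn4a u-001, 465 nt in the gene of the skeletal muscle sodium channel, was held by 111 of 111 reads in EDL and 62 of 62 in soleus, with 5 of 5 in cardiac apex. The later catalogue held no same-strand exon over the Scn4a part.

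Of the 21 upstream parts, in 9 genes, 9 had a share of at least 95% in every library with 10 or more reads, and 8 had a highest share under 5%. Amotl1, which encodes a junction protein of the angiomotin family, had 3 upstream parts and no read from cardiac apex over them. Amotl1 u-005, 347 nt, was held by 124 of 124 reads in EDL and 263 of 263 in soleus, and u-003, 98 nt, by 124 of 124 and 265 of 267. Amotl1 u-004, between them, was skipped more often (it was singled out after its values were seen), with 101 of 124 reads in EDL and 200 of 267 in soleus holding it. Gpam u-013, 319 nt and the farthest upstream of the 12 Gpam parts, was held by 702 of 702 reads in EDL and 386 of 388 in soleus, but only 1 cardiac read reached it.

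Inside genes, a few parts were also near 100% everywhere. Fhod3 u-006, 24 nt in the gene of a formin that builds sarcomere actin filaments, was held by 700 of 700, 136 of 136 and 124 of 124 reads. Mast2 u-001, 355 nt in the gene of a serine/threonine kinase, was held by 140 of 140, 156 of 157 and 254 of 263, and the later catalogue held no same-strand exon over it. Mylk4 u-001, 290 nt in a myosin light chain kinase gene, is the sixth with the edges of an exon of the later catalogue and was held by 147 of 147 reads in EDL and 15 of 15 in soleus. In all, 16 of the 237 parts with 10 or more reads in every library stayed at 95% or more in all 3, against 5402 of 6730 annotated parts.

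Several genes carried many parts. Gpam and Ptprm, a receptor tyrosine phosphatase gene, had 12 each, Limch1 had 11, and Hk2, for hexokinase of muscle, and Sox6, for a repressor of slow fibre genes, had 8 each. A single part was found in 56 of the 127 genes. By host class, giant and large sarcomere genes held 43 parts in 16 genes, calcium handling and excitation genes 13 in 4, membrane skeleton and costamere genes 7 in 2 (Dmd and Dag1), splicing regulators 3 in 2, and other genes the remaining 243. A highest share of at least 20% was reached by 10 of the 43 sarcomere parts, by 3 of the 13 calcium and excitation parts, by none of the 7 Dmd and Dag1 parts or the 3 splicing regulator parts, and by 73 of the 243 others.

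Use of the parts was then compared between libraries. Each of the 3 pairs was tested part by part on full-length reads, by Fisher's exact test (two-sided), adjusted by Benjamini-Hochberg over all parts of the table with 10 full-length reads in both libraries. A part was called at an adjusted p under 0.05 and a gap of at least 20 percentage points. Molecules merged into the same consensus read are not independent, so these p-values are too small, and consensus reads were tested as a check. The cardiac library enters 2 of the pairs, so their calls are not independent.

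Between cardiac apex and EDL, 20 of 244 tested parts were called (8.2%), where 1.65% of all 15653 parts were. EDL was higher in 16 (1.3% of all parts) and cardiac apex in 4 (0.351%). On consensus reads 16 were called, 14 of them among the 20, where 1.02% of all parts were. Between cardiac apex and soleus, 20 of 245 parts were called (8.16%), against 1.21% of all 15177. Soleus was higher in 17 (0.955% of all parts) and cardiac apex in 3 (0.257%). On consensus reads 10 were called, 9 of them among the 20, against 0.791% of all parts.

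Between EDL and soleus 5 of 281 parts were called (1.78%), against 0.387% of all 17043. EDL was higher in 2 (0.176% of all parts) and soleus in 3 (0.211%). On consensus reads 3 were called, 1 of them among the 5, against 0.111% of all parts. Annotated parts with the same coverage floor were called at 3.05%, 2.18% and 0.653% in these pairs, in the order above. These backgrounds hold many parts that every read keeps, while a part absent from the annotation can only be seen where some read holds it.

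**Figure D3:**
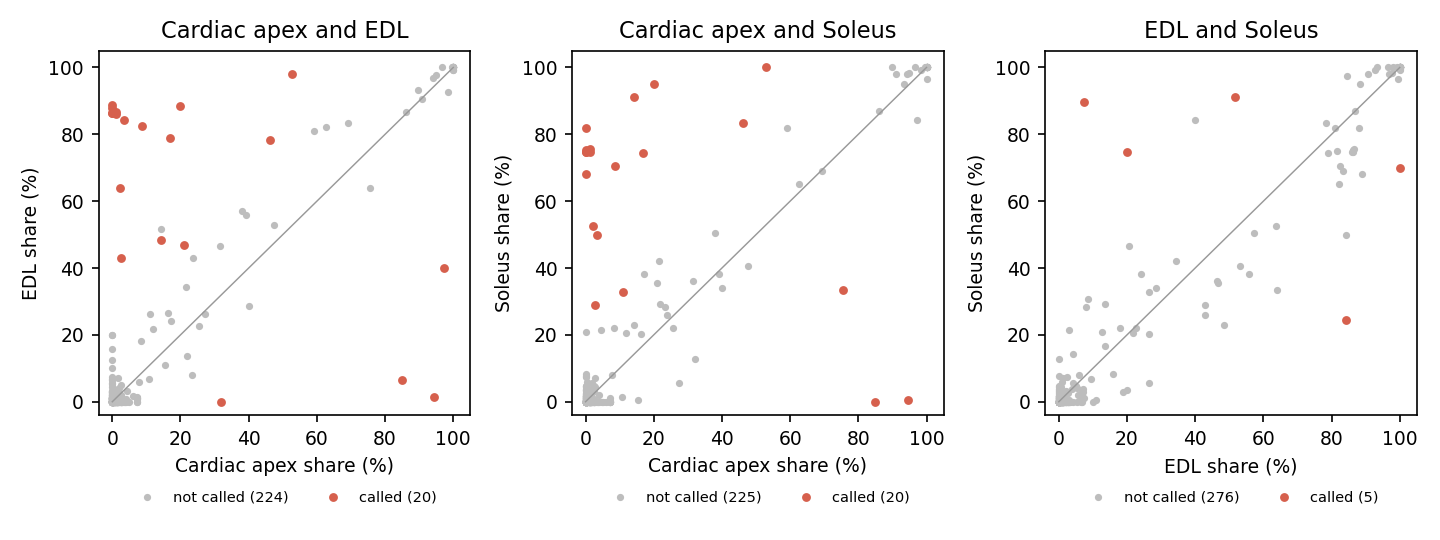
Each point is a part with 10 or more full-length reads in both libraries of a pair, placed by its share in each library in percent; the line marks equal shares and red points were called. In the panels with cardiac apex most called parts lie above the line, and in the panel of the leg muscles most points lie near it.

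Many parts moved little. The shares of 116 of 244 parts differed by under 1 percentage point between cardiac apex and EDL, those of 121 of 245 between cardiac apex and soleus, and those of 146 of 281 between the leg muscles. The median absolute gap was 1.11, 1.05 and 0.833 points in these pairs, in that order, against 0 over all parts of the table. In 190 of the 309 parts every share was under 5%, so a larger gap was not possible there. Together the pairs called 27 parts in 19 genes, 15 to 7715 nt long. Of these 27, 20 lie in an intron between coding exons, 13 have a length that is a multiple of 3, and 22 have no same-strand exon in the later catalogue. Called in both pairs with cardiac apex were 16 parts of 9 genes, 14 of them lower in cardiac apex and 2 higher. The 14 include 5 neighbouring Limch1 parts that are not independent. Calls over all parts leaned the same way, with 203 of 258 lower in cardiac apex than in EDL and 145 of 184 lower than in soleus. Counts of all parts called in some pair, or in both pairs with cardiac apex, were not made. The 27 and the 16 therefore have no matching background.

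The called parts follow gene by gene, and the order by role implies no test of a group. Cltc u-001, 43 nt between exons 31 and 32 of 32 of the gene for the clathrin heavy chain, which coats vesicles (chr11:86696176-86696218, minus strand), was held by 7 of 309 cardiac reads, 196 of 307 in EDL and 126 of 239 in soleus. Its share was 2.27% in cardiac apex (95% exact interval 0.916 to 4.61), 63.8% in EDL (58.2 to 69.2) and 52.7% in soleus (46.2 to 59.2). Cardiac apex was low and both leg muscles were above 50%, with adjusted p-values by Fisher's exact test of 8.82e-67 against EDL and 2.23e-44 against soleus. On consensus reads the shares were 7.84%, 50% and 47.5%.

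Clasp2, which encodes a protein that stabilises growing microtubule ends, had a pair of such parts. Clasp2 u-009, 30 nt (chr9:113862433-113862462, plus strand), was held by 7 of 80, 76 of 92 and 48 of 68 reads, and u-011, 51 nt (chr9:113892607-113892657), by 37 of 80, 72 of 92 and 55 of 66. Both were lowest in cardiac apex and the first one more so, at 8.75% against 82.6% in EDL and 70.6% in soleus. The calls on u-011 were lost on consensus reads in both pairs, and that on u-009 was lost against soleus.

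Kif13a, for a kinesin that carries endosomes, likewise had a pair. Kif13a u-026, 129 nt (chr13:46808148-46808276, minus strand), was held by 0 of 29 reads in cardiac apex (3 counts would be 10.3%), by 16 of 18 in EDL and by 17 of 25 in soleus. Kif13a u-023, 44 nt (chr13:46760261-46760304), was held by 1 of 29, 16 of 19 and 13 of 26. Both were near 0 in the cardiac reads and common in EDL, at few reads in each library, and the call on u-023 against soleus was lost on consensus reads.

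Clip1, for another microtubule end protein, had parts that went opposite ways in an intron ahead of the coding sequence. Clip1 u-002, 195 nt (chr5:123661506-123661700, minus strand), was held by 32 of 100 cardiac reads, 0 of 141 in EDL, which allows up to 2.13%, and 55 of 426 in soleus. Clip1 u-004, 327 nt (chr5:123670888-123671214), was held by 14 of 67, 66 of 141 and 133 of 373. The first was thus highest in cardiac apex and not seen in EDL, and the second was lowest in cardiac apex; the calls were cardiac apex against EDL, with adjusted p-values by Fisher's exact test of 2.23e-12 and 0.0221. The second was lost on consensus reads, where its shares were 33.3%, 48.3% and 52.2%.

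Lmo7, which encodes an actin-binding protein with a LIM domain found at cell junctions, had parts whose shares went opposite ways in heart and leg. Whether the same reads held both was not examined. Lmo7 u-006, 42 nt (chr14:101915893-101915934, plus strand), was held by 193 of 227 cardiac reads, 5 of 76 in EDL and 0 of 160 in soleus, which allows up to 1.88%. Lmo7 u-005, 204 nt (chr14:101886128-101886331), was held by 38 of 225 cardiac reads, 60 of 76 in EDL and 119 of 160 in soleus.

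The Lmo7 parts therefore stood at 85%, 6.58% and 0%, and at 16.9%, 78.9% and 74.4%, in cardiac apex, EDL and soleus. Adjusted p-values by Fisher's exact test were 2.8e-34 and 1.49e-71 for u-006 against EDL and soleus, and 1.8e-20 and 4.56e-28 for u-005. On consensus reads u-005 missed the threshold against soleus, with an adjusted p of 0.0625 by the same test, and the other 3 calls were kept.

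Limch1, for a LIM and calponin homology domain protein that activates nonmuscle myosin, held 5 called parts in a row between its exons 8 and 9 (chr5:66975549-66992241, plus strand). Limch1 u-005, 271 nt, was held by 0 of 82 reads in cardiac apex, which leaves room for up to 3.66%, by 44 of 50 in EDL and by 68 of 83 in soleus. The other 4, u-006 to u-009, had cardiac shares of 0% to 1.20%, EDL shares of 86.0% to 86.5% and soleus shares of 74.7% to 75.6%. All 5 parts were low in heart and high in both leg muscles, with nearly the same numbers of reads, and they are not independent of each other.

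Together these parts are longer than any selected molecule. The 5 parts add to 11958 nt, and u-006 (5401 nt) and u-009 (5701 nt) alone add to 11102 nt, above the 10 kb limit of the size selection. In EDL, 43 of 50 reads were counted as holding u-006 and 45 of 52 as holding u-009, so at least 36 reads were counted as holding both if the same reads covered them. On that condition, a read counted as holding a long part need not contain all of it. The authors' deposited lists place u-009 among artifacts and u-004 to u-008 among new parts. Limch1 u-004, 455 nt, was held by 18 of 77, 3 of 38 and 21 of 74 reads and was not called.

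**Figure D4:**
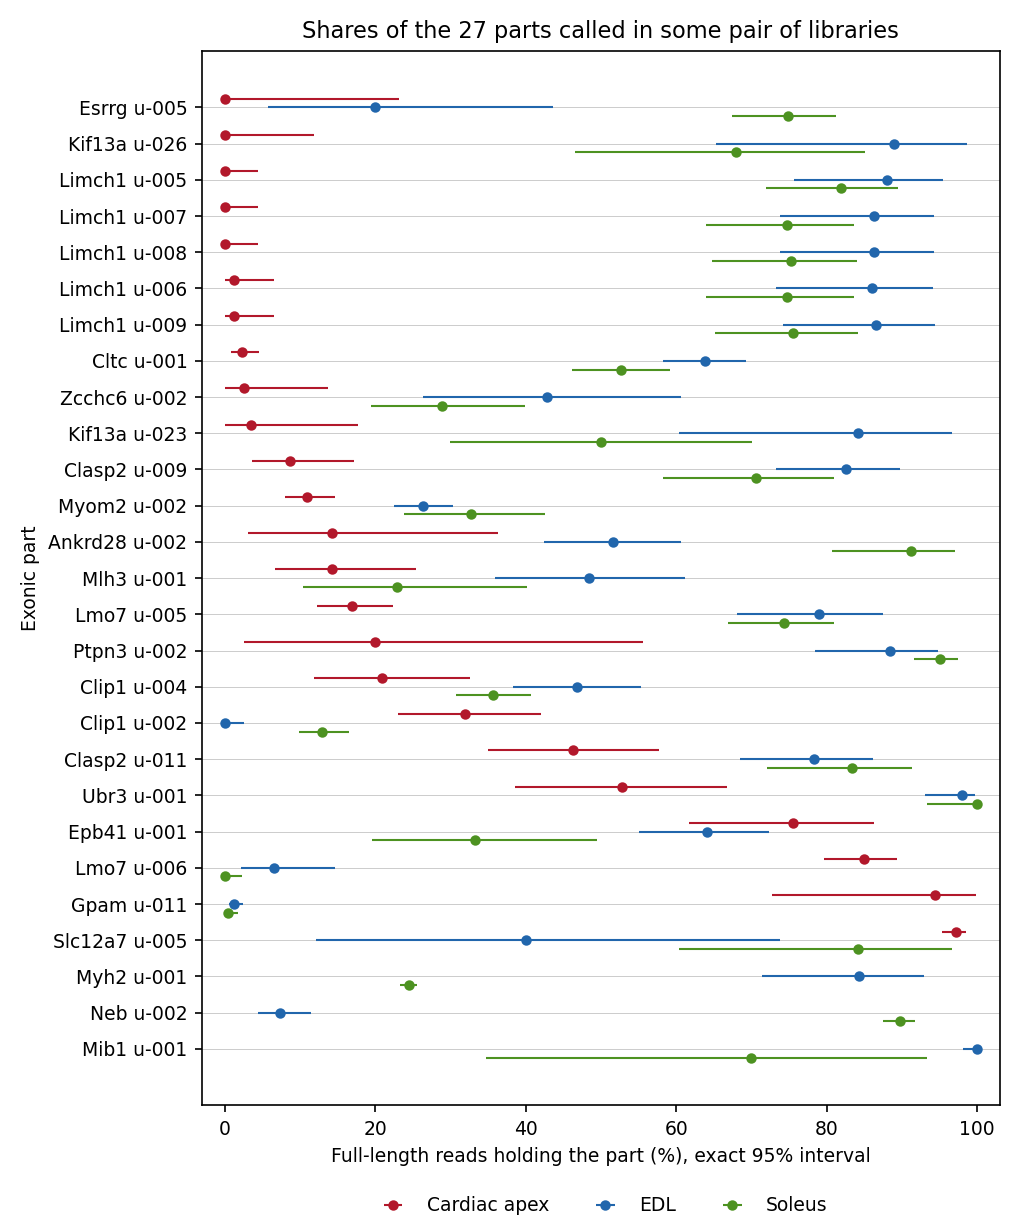
Points give the percent of full-length reads that held each of the 27 called parts in each library with 10 or more reads, and lines give exact 95% intervals, ordered by the cardiac share with the parts called in the leg pair only at the bottom. Cardiac points lie at the left of both leg muscles for the Limch1, Kif13a, Cltc and Clasp2 parts and at the right for Lmo7 u-006.

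Ubr3 u-001, 33 nt (chr2:69971402-69971434, plus strand) in the gene of a ubiquitin ligase, was held by 28 of 53 cardiac reads, 99 of 101 in EDL and 53 of 53 in soleus. The leg muscles nearly always kept it and cardiac apex did so in 52.8% of reads, with adjusted p-values by Fisher's exact test of 4.61e-10 and 1.36e-07, and both calls were kept on consensus reads. Ptpn3 u-002, 500 nt (chr4:57248794-57249293, minus strand) in a tyrosine phosphatase gene, was held by 2 of 10, 61 of 69 and 232 of 244 reads, a low cardiac value that rests on 10 reads. Ankrd28 u-002, 1859 nt (chr14:31780158-31782016, minus strand) in the gene of a protein phosphatase 6 subunit, was held by 3 of 21, 64 of 124 and 52 of 57.

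The Ankrd28 shares of 14.3%, 51.6% and 91.2% put soleus above EDL and EDL above cardiac apex, and soleus was called against both. Zcchc6 u-002, shown above, was called lower in cardiac apex in both pairs, with adjusted p-values by Fisher's exact test of 0.00174 and 0.0295. Mlh3 u-001 was called between cardiac apex and EDL, with an adjusted p of 0.00181 by the same test. The calls on Ptpn3, Ankrd28, Zcchc6 and Mlh3 were all lost on consensus reads.

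Esrrg, the gene of a nuclear receptor that drives oxidative metabolism genes in muscle, had a part highest in the slow muscle. Esrrg u-005, 462 nt ahead of the coding sequence (chr1:187919255-187919716, plus strand), was held by 0 of 14 reads in cardiac apex, where 3 counts would be 21.4%, by 4 of 20 in EDL and by 122 of 163 in soleus. Soleus, at 74.8%, stood above both, but on consensus reads the soleus share was 39.3% and the EDL share 25%, and neither call was kept. Slc12a7 u-005, 15 nt (chr13:73810694-73810708, plus strand) in a potassium chloride cotransporter gene, was held by 488 of 502, 4 of 10 and 16 of 19 reads. Its call between cardiac apex and EDL rests on 10 EDL reads, and on consensus reads the shares were 72.7% and 66.7%.

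Of the 43 parts in sarcomere genes 3 were called (6.98%), where 27 of all 309 parts were (8.74%). Neb u-002, 109 nt between coding exons 147 and 148 of the nebulin gene (chr2:52154554-52154662, minus strand), was held by 18 of 243 reads in EDL and 772 of 860 in soleus, and no cardiac read covered it. The gap from 7.41% to 89.8% had an adjusted p of 1.59e-132 by Fisher's exact test and was the one call of this pair kept on consensus reads, where the shares were 9.38% and 73.2%. Myom2 u-002, 319 nt (chr8:15060606-15060924, plus strand) ahead of the coding sequence of an M-band protein, was held by 40 of 363, 135 of 513 and 34 of 104 reads. It was lowest in cardiac apex, at 11%, and was called against soleus, at 32.7%, a call lost on consensus reads; Myom2 u-001, 60 nt, was held by 33 of 193, 79 of 327 and 13 of 34 reads and was not called.

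The third, Myh2 u-001, 35 nt lying 13 nt from an annotated part of the fast IIa myosin gene, was held by 43 of 51 reads in EDL and 1434 of 5867 in soleus. The gap from 84.3% to 24.4% shrank to 57.9% and 29.9% on consensus reads and was not called there, and the authors' deposited lists place this part among artifacts. Mib1 u-001, 121 nt in the gene of a ubiquitin ligase of Notch ligands, was held by 191 of 191 reads in EDL and 7 of 10 in soleus, and that call too was lost on consensus reads.

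For nebulin, the deposited data also give whole reads across a region, from exon 122 to exon 152, with the exons that each read holds. Such reads held u-002 in 15 of 238 in EDL (6.30%, 3.57 to 10.2) and in 771 of 856 in soleus (90.1%, 87.9 to 92.0). These are full-length reads, and those merged into the same consensus read are not independent. The intervals are therefore too narrow, and the consensus reads behind them were not counted. Reads with u-002 held nearly all the variable exons from 138 to 151. The exons on either side of u-002 come from Ensembl transcripts; the one toward exon 147 was on 14 of 15 EDL reads with u-002 and 2 of 223 without, and the one toward exon 148 on 15 of 15 and 2 of 223. In soleus these exons were on 749 and 762 of 771 reads with u-002 and on 5 and 2 of 85 without. In EDL exon 147 was on 15 of 15 reads that held u-002 and on 1 of 223 that lacked it, and exon 148 was on 15 of 15 and 24 of 223. In soleus exon 147 was on 764 of 771 reads with u-002 and 17 of 85 without, and exon 148 on 771 of 771 and 58 of 85. Exons farther off went with u-002 in EDL. There exon 138 was on 15 of 15 reads with it and 78 of 223 without, and exon 151 on 15 of 15 and 80 of 223. In soleus nearly all reads held these exons with or without u-002. Exon 138 was on 771 of 771 and 84 of 85 soleus reads, and exon 151 on 771 of 771 and 81 of 85.

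The same reads reach a site farther upstream. Exon 123, which stands next to an alternative exon of an Ensembl transcript, was on 303 of 771 soleus reads that held u-002 and on 3 of 85 that lacked it. In EDL it was on 0 of 15 reads with u-002, where 3 counts would be 20%, and on 3 of 223 without. The alternative exon was on 467 of 771 and 82 of 85 soleus reads, and on 15 of 15 and 218 of 223 EDL reads. Of 28 distinct exon combinations in soleus 12 held u-002, and the most common of these, with every listed exon but exon 123, made up 435 of 856 reads. In EDL 2 of 37 combinations held it, and the same one made up 14 of 238 reads.

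**Figure D5:**
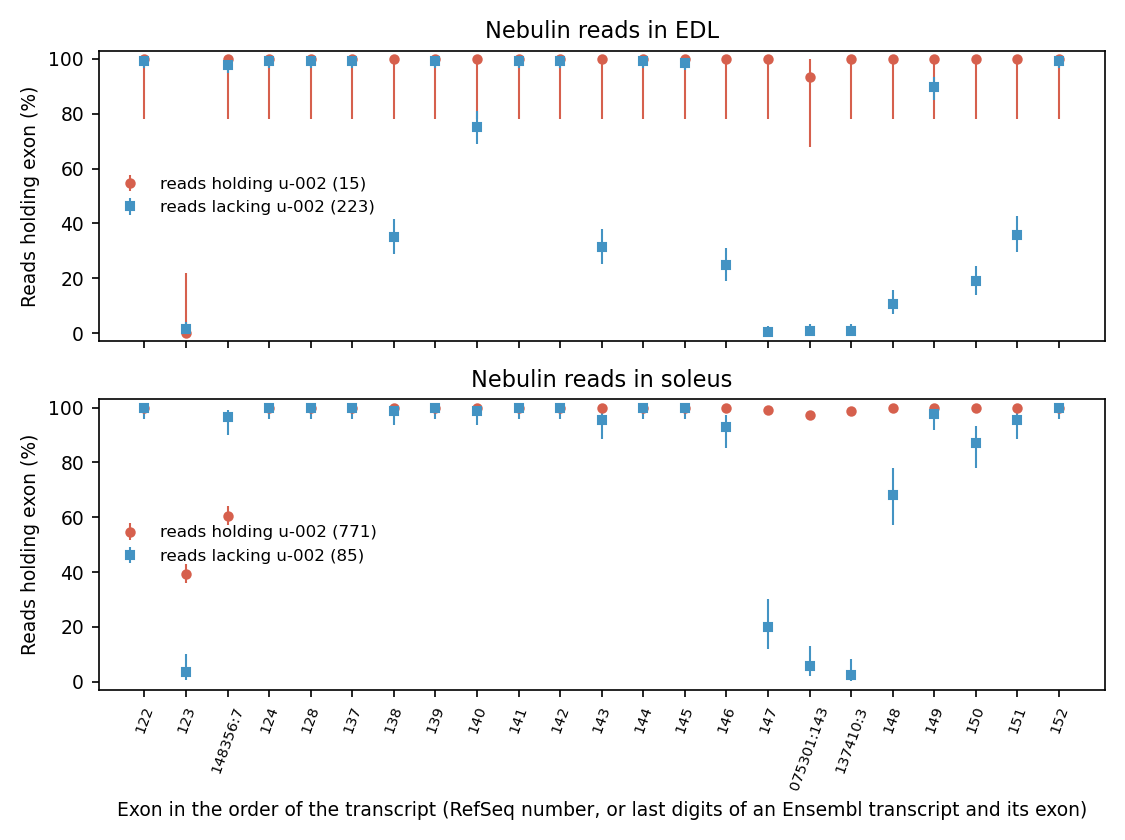
Points give the percent of nebulin reads that held each exon, with exact 95% intervals, for reads that held u-002 and reads that lacked it, in EDL and in soleus; exons stand in transcript order from exon 122 to exon 152. Reads with u-002 hold exons 146 to 151 in nearly all cases in both muscles. Reads without it hold exon 147 rarely in EDL and in 20% of cases in soleus. The intervals treat full-length reads as independent and are too narrow.

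The authors' deposited lists set 14 of the 309 parts apart as new exons and 8 as artifacts. Of the 14, 11 were called here, and the others were Limch1 u-004, Myom2 u-001 and Phldb1 u-002. Phldb1 u-002, 146 nt in the gene of a membrane protein that anchors microtubules, was held by 23 of 107, 12 of 35 and 16 of 38 reads. That list was made from these libraries and is no independent evidence.

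Of the 8 parts on the list of artifacts, 4 were called here: Myh2 u-001, Limch1 u-009, Gpam u-011 and Epb41 u-001. Gpam u-011, a part of 200 nt that lies 15035 nt from the nearest annotated part of its gene, was held by 17 of 18 cardiac reads, 9 of 707 in EDL and 2 of 390 in soleus, and the cardiac reads came from 5 consensus reads; on consensus reads its call was kept against EDL and lost against soleus. Epb41 u-001, 7715 nt in the gene of a spectrin-binding protein that the host classes place among other genes, was held by 40 of 53, 82 of 128 and 14 of 42, and its call between cardiac apex and soleus was lost on consensus reads. Myh6 u-006, a part of 229 nt that lies 940 nt upstream of the nearest annotated part, was held by 415 of 427 cardiac reads, and Mef2c u-002, 27 nt in the gene of a muscle transcription factor, by 1 of 1 cardiac read, 0 of 80 in EDL and 0 of 354 in soleus. Of the 27 called parts, 9 were on none of the authors' deposited lists of differing parts. The deposited protocol names a floor of 30 consensus reads per part, which is higher than the coverage floor used here. How many of these 9 parts lay under that higher floor was not counted, so their absence from the lists cannot be read as parts missed.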

How the data were processed

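RNA came from a mirVana kit and cDNA from a SMARTer kit, per the labels' protocols. Per the submitters' processing notes, STAR 2.5.0am and the build mm10 (GRCm38) were used. Per the deposited protocol, the authors took genes with at least 10 consensus reads, collapsed annotation release 85 into exonic parts, and deposited raw counts of consensus and full-length reads that cover or hold each part. The authors' deposited fractions equalled the ratio of these counts in every row. Deposited percent values give the reads in no single gene (9.78%, 8.92% and 8.64%). Here shares were recomputed from the counts with exact Clopper-Pearson 95% intervals, which cover counting error only. They treat full-length reads as independent, so they are too narrow where reads were merged into the same consensus read. A share of 0 is given with the share that 3 counts would make, which is not the upper end of the exact interval. Positions were counted from 1 and compared with GENCODE release M21 by coordinates and strand. The Fisher's exact tests used SciPy 1.17.1, after a run on simulated data. Named parts are those called, the 10 others with the highest share, those on the authors' list of new parts and up to 5 on their list of artifacts; others are marked. The parts and lists were chosen with earlier results of these data known.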

Additional observations from a re-analysis of the deposited data

How the results depend on the processing

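No paired analysis was possible because each tissue has 1 library, and for the same reason none could be left out. Between EDL and soleus the 5 calls became 3 on consensus reads, of which 1 was among the 5, 2 with full-length reads scaled to the number of consensus reads, 3 at a floor of 30 covering consensus reads, 8 at a floor of 10, 12 at a gap of 10 points and 14 with no minimum gap. Between cardiac apex and EDL the 20 calls became 13 at a floor of 30. Between cardiac apex and soleus the 20 calls became 10 on consensus reads, of which 9 were among the 20. The cause was not tested. The other planned settings left these counts within 1.5 times, as did leaving out parts of 5000 nt or more, parts on the list of artifacts or parts held by 1 consensus read, which were added after seeing the data. Of the 45 single calls, 21 were lost on consensus reads and 14 with scaled reads, and none changed direction. Of 127 shares of named parts, 88 stayed inside their interval on consensus reads. Parts that touch an annotated part were 0, and 4 within 3 nt. The planned check of splice site bases was not run, since no genome sequence was at hand.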
